A study of Mus musculus with 71 samples.

Results

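Whole blood of HOCl-induced mice treated with BPR21 was compared with that of HOCl-induced mice treated with D06, across every gene measured. The 24 mice were those whose sample labels name BPR21 (12 mice) or D06 (12 mice) as the treatment, out of 71 mice in the series. The study examined galectin-3 (Gal-3) blockade in a model of systemic sclerosis, and its design text speaks of 3 monoclonal antibodies against Gal-3 without naming them. What D06 and BPR21 are, and their dose, route and schedule, are not given in the sources used here, so no direction below can be tied to a known target of either agent. Both groups carry the hypochlorous acid (HOCl) induction in their labels. Per the methods, that means intradermal injection on 5 days of each week for 6 weeks. The mice described there were female Balb/c AnNRj mice aged 6 weeks. D06 and BPR21 are not among the groups described, so sex, strain, age and schedule are not stated there for these 24 mice. For context, levels are also given for HOCl mice without an agent, of which 12 have counts and 11 have normalized values, and for 11 control (CTRL) mice that received PBS. The control mice were identified by their sample titles, since their genotype tag reads HOCL, as in the induced mice, and their treatment tag reads none. Per the methods, the experimental groups were kept in separate cages, so cage and agent cannot be told apart. Whether the D06 and BPR21 mice were kept and handled together with the other groups is not stated.

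Repeated HOCl injection exposes the skin to oxidants and leads over weeks to inflammation, autoantibodies and fibrosis of skin and lung. Gal-3 is a lectin that binds galactose-containing sugars on glycoproteins, is abundant in monocytes and macrophages, and takes part in leukocyte recruitment and fibrosis. Whole-blood RNA is a mixture of transcripts from lymphocytes, monocytes, granulocytes, platelets and immature red cells, so the level of a cell-restricted gene depends both on how many of its cells are present and on how much of its RNA each cell holds. In such bulk samples these cannot be told apart.

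The 24 libraries held 12241849 to 15948972 counts on genes. Total counts did not separate the groups (log2 difference in means 0.0057, BPR21 minus D06, p = 0.872 in a two-sided permutation test, 100000 resamples). Size factors, which scale each library by the median of its genes rather than by its total, ran from 0.595 to 1.46 in BPR21 mice (median 0.990) and from 0.414 to 1.31 in D06 mice (median 0.865), with p = 0.252 in the same permutation test of their log2 means. Genes of immature red cells took 7.31% to 15.3% of all counts in BPR21 mice (median 11.4%) and 9.14% to 22.5% in D06 mice (median 12.2%). The libraries looked like blood: 30 of 30 markers of red cells, platelets and the leukocyte classes had a median of at least 1 CPM, which is a gene's count scaled by the library total, in both groups. For 10 of 10 markers of liver, muscle, skin, fibroblasts and lung, the median stayed under 1 CPM, with 0.806 CPM as the highest.

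In a principal component analysis of the 24 mice over all genes, the leading component did not separate the groups. PC1 held 22.3% of the variance, and its mean score differed by -3.07 (BPR21 minus D06) and gave p = 0.664 in a two-sided permutation test. PC2 held 14.4% of the variance and its mean score differed by -10.9, with p = 0.0436 in the same test, unadjusted for the pair of components tested. BPR21 mice 7 and 11 had the lowest PC2 scores, -31.9 and -35.8, and without them the difference was -5.19 (p = 0.178, permutation test, a choice made after seeing the scores). The components were not recomputed for this, so the scores are still on the PC2 of all 24 mice. The mouse with the lowest size factor in each group, BPR21 mouse 12 and D06 mouse 5, had the highest PC1 score of its group, with 39.9 and 36.0. Neutrophil genes set BPR21 mice 7 and 11 apart: their summed level was 24778 and 18121 CPM, against 2734 to 6707 CPM in the other 10 BPR21 mice. D06 mouse 1 also stood high, with 13836 CPM against 2267 to 6676 CPM in the other D06 mice. The distance of each mouse from its group mean over all genes differed by 0.608 on the vst scale between the groups (p = 0.862, two-sided permutation test).

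**Figure D1:**
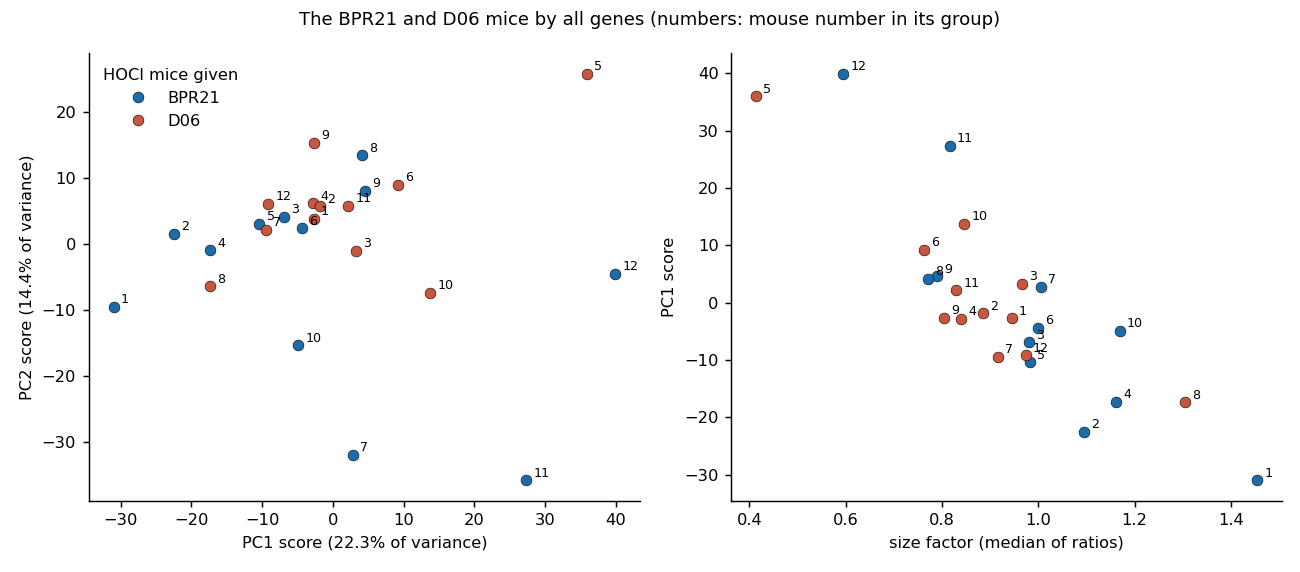
Left, scores of the 24 mice on the leading pair of principal components of the vst values of all genes (blue, BPR21; red, D06; numbers, mouse number in the group). Right, PC1 score against size factor: BPR21 mouse 12 and D06 mouse 5 stand at the low end of the size factors with PC1 scores of 39.9 and 36.0.

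Few genes separated the agents. Of 10508 genes with deposited vst values (counts scaled by size factor and put on a log2-like scale), 6 passed an FDR of at most 0.05 together with a fold-change of at least 1.3 in limma, which is 0.0571% of the genes tested. Il7r, the receptor subunit that transmits interleukin-7 survival signals to T cells, was the 1 gene higher in BPR21 mice (0.00952%). The 5 genes lower in BPR21 mice (0.0476%) were Camk1, Crip1, Gm21188, Aif1 and Camp. A test of the counts themselves with edgeR on 10501 of these genes called 7 (0.0667%), again with Il7r alone on the higher side (0.00952%), and with Camk1, Crip1, Camp, Ngp, Ccr3 and Lgals1 on the lower side (0.0571%). A limma fit of all 6 groups of the series, which estimates each gene's spread from more mice, called 36 (0.343%), 9 higher (0.0856%) and 27 lower (0.257%). Calls of the 2 tests shared 4 genes and together comprised 9. At an unadjusted p under 0.05, 939 genes (8.94%) differed in limma, 463 of them higher (4.41%) and 476 lower (4.53%) in BPR21 mice, and the median log2 fold change over all genes was 0.01. Of all 10508 genes, 5579 had a fold change above 0 and 4929 below 0.

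**Figure D2:**
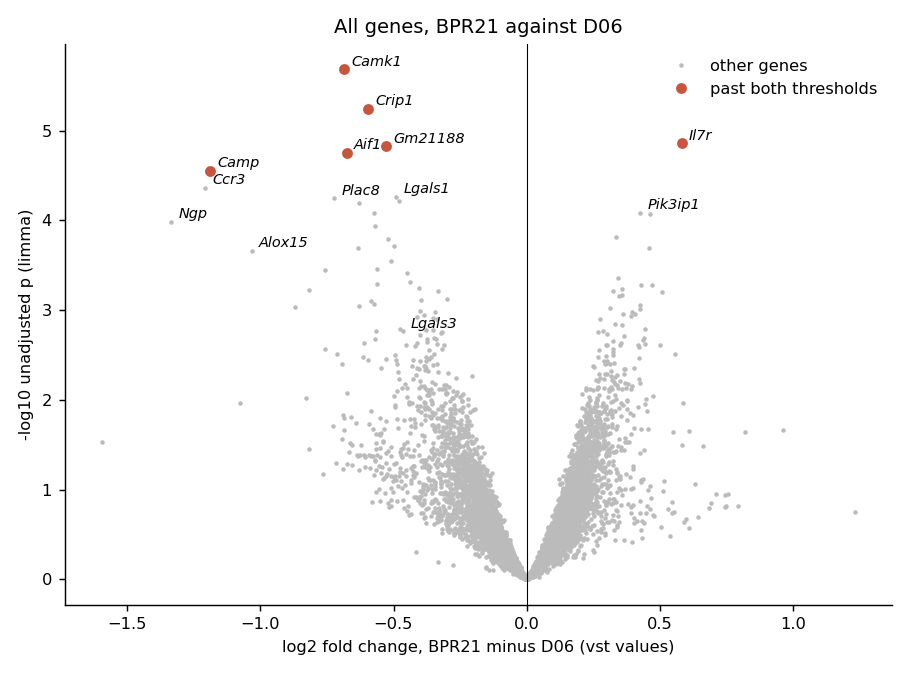
Log2 fold change between BPR21 and D06 mice (x axis, vst values, negative where lower in BPR21) against the unadjusted limma p on a -log10 scale (y axis), 1 point per gene. Red points are the 6 genes past both thresholds. Of these, 5 lie on the side of lower values in BPR21 mice and Il7r on the other.

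Camk1 encodes a calcium- and calmodulin-dependent protein kinase (ENSMUSG00000030272, GRCm39 chromosome 6, 113311071 to 113321106, minus strand, with Ogg1 on the opposite strand overlapping it). Its vst value ran from 8.51 to 9.31 in BPR21 mice (median 8.74) and from 9.21 to 10.00 in D06 mice (median 9.50). Every BPR21 mouse lay below the D06 median, and 10 of 12 lay below the lowest D06 mouse, so the groups overlapped only at their edges. The difference was -0.69 (SE 0.12, limma FDR = 0.0220), which corresponds to a 1.61-fold higher vst-scale level in D06 blood. HOCl mice without an agent had a median of 8.92 and control mice one of 8.59, both closer to the BPR21 median than to the D06 median. These levels are given without a test. edgeR gave the same direction and a larger difference on counts (log2 fold change -0.87, FDR = 0.00889). With each mouse left out in turn, Camk1 passed both thresholds in 20 of 24 fits, and the FDR was 0.0618 without D06 mouse 2, 0.0612 without D06 mouse 8, 0.0561 without BPR21 mouse 11 and 0.0556 without BPR21 mouse 6.

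Crip1, a small LIM-domain protein with zinc-binding motifs (ENSMUSG00000006360, chromosome 12, 113109936 to 113117503, plus strand), had adjacent ranges in the groups. The vst value ran from 9.26 to 10.27 in BPR21 mice (median 10.07) and from 10.30 to 10.91 in D06 mice (median 10.57). How many of all genes had ranges that do not overlap was not counted, and Crip1 was picked by its p in the same values. The lowest BPR21 mouse was mouse 12, which also had the lowest size factor of its group. Crip1 was lower in BPR21 mice by -0.60 on the log2 scale (SE 0.11, limma FDR = 0.0300; edgeR FDR = 0.0347). HOCl mice without an agent (median 10.23) and control mice (median 10.26) stood between them. The call held in 17 of 24 leave-one-out fits, with the highest FDR, 0.0703, without BPR21 mouse 6.

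Il7r (ENSMUSG00000003882, chromosome 15, 9505874 to 9530262, minus strand) went the opposite way. Its vst value was 11.25 to 12.11 in BPR21 mice (median 11.61) and 10.56 to 11.59 in D06 mice (median 10.97). All 12 BPR21 mice were above the D06 median and 10 of 12 D06 mice were below the lowest BPR21 mouse, while D06 mouse 1, at 11.59, lay just under the BPR21 median. The difference was 0.58 (SE 0.11, limma FDR = 0.0373; edgeR FDR = 0.0412). Il7r passed both limma thresholds in 10 of 24 leave-one-out fits, with an FDR of up to 0.0900 without D06 mouse 3. HOCl mice without an agent (median 11.04) and control mice (median 11.12) lay near the D06 mice.

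Gm21188 (ENSMUSG00000095609, chromosome 13, 120496140 to 120513730, minus strand) is a predicted protein-coding gene that the GENCODE vM39 annotation lists as Anxa2r1. Its vst value was 7.00 to 7.91 in BPR21 mice (median 7.65) and 7.84 to 8.58 in D06 mice (median 8.19), with 11 of 12 BPR21 mice below every D06 mouse. HOCl mice without an agent had a median of 7.94 and control mice one of 8.26. The log2 fold change was -0.53 (SE 0.10, limma FDR = 0.0373), and edgeR on counts just missed the threshold (FDR = 0.0502). The limma call held in 8 of 24 leave-one-out fits, and the FDR was 0.0900 without D06 mouse 3. This gene is uncertain, because 46.3% of the 31-base words of its transcripts also occur in transcripts of other genes, and how reads with several possible origins were counted is not given in the sources used here. The corresponding share was at most 8.08% for the 8 other called genes.

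Aif1 encodes the calcium-binding protein IBA1 of monocytes and macrophages (ENSMUSG00000024397, chromosome 17, 35387384 to 35395053, minus strand). Its vst value was 6.46 to 7.55 in BPR21 mice (median 7.22) and 7.47 to 8.43 in D06 mice (median 7.69). Raw counts were low, with 3 to 81 in BPR21 mice and 32 to 193 in D06 mice, which limits precision for single mice. BPR21 mouse 12 had the lowest value, 10 of 12 BPR21 mice were below every D06 mouse, and the log2 fold change was -0.68 (SE 0.13, limma FDR = 0.0373; edgeR FDR = 0.121). It passed both limma thresholds in 8 of 24 leave-one-out fits, with an FDR of up to 0.0900 without D06 mouse 3. HOCl mice without an agent had a median of 7.78 and control mice one of 8.14, both closer to the D06 median.

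**Figure D3:**
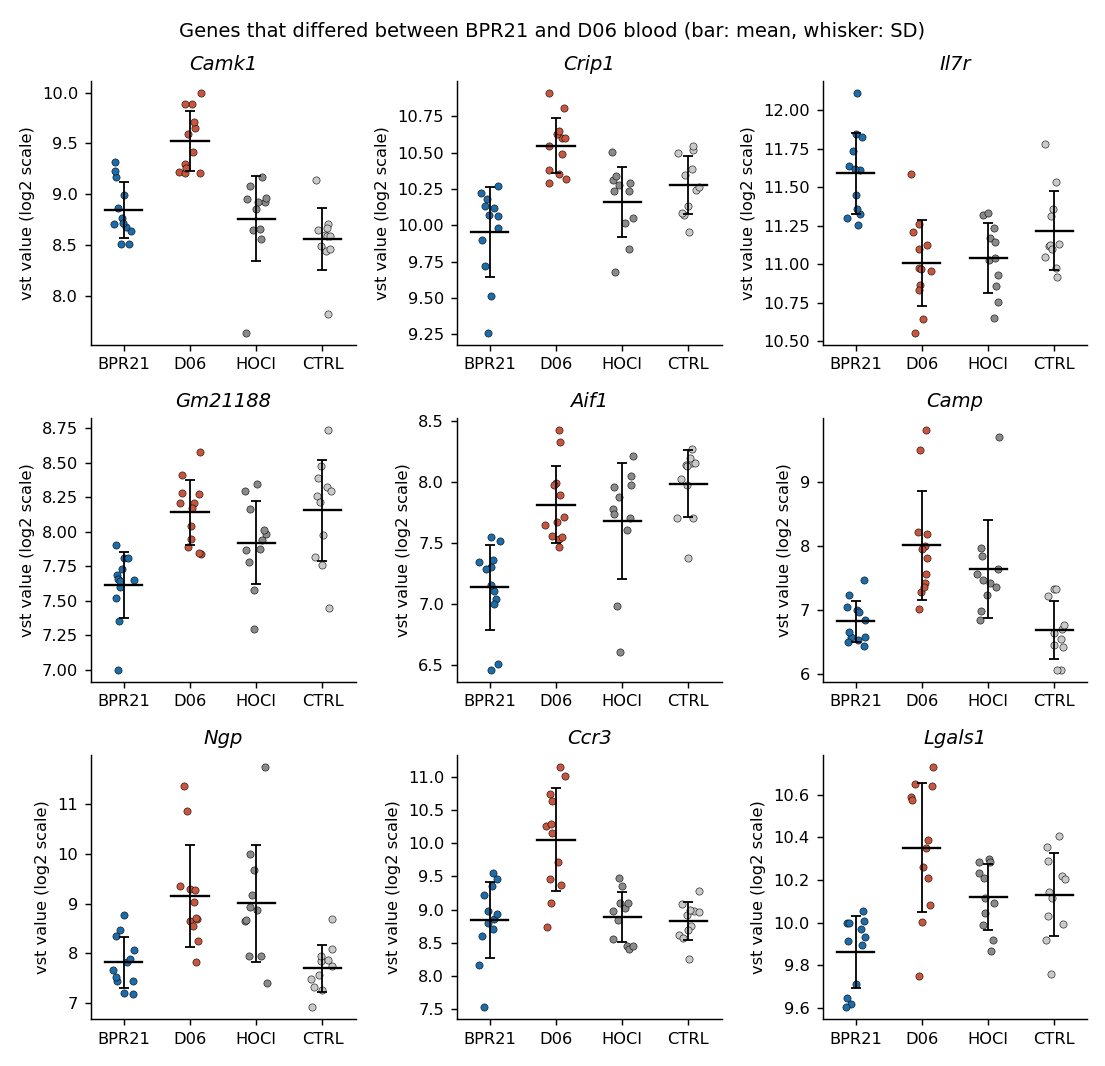
vst values (y axis, log2-like scale) of the 9 genes called by limma or edgeR, 1 point per mouse, in BPR21 (n = 12), D06 (n = 12), HOCl (n = 11) and control (n = 11) mice. Bars give the group mean and whiskers the SD. In the Crip1 panel the highest BPR21 mouse lies just below the lowest D06 mouse, and the Camp and Ngp panels show D06 mice 1 and 6 far above the rest of their group.

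Among 28 neutrophil genes, Camp and Ngp were called by edgeR as lower in BPR21 mice, and Camp also by limma. Camp, the cathelicidin antimicrobial peptide, and Ngp, the neutrophilic granule protein, are both stored in the secondary granules that form in bone marrow myelocytes, and both are hardly transcribed in mature neutrophils. Genes of this granule programme are known targets of C/EBP factors, whereas the eosinophil receptor gene Ccr3 belongs to a lineage that depends on GATA factors. The promoters of these 3 granulocyte genes among the called ones are given as the 250 bases before the annotated start, read 5′ to 3′ on the gene's strand, with capitals for the C/EBP motif TTGCNNAA in Camp and Ngp and for the GATA motif AGATAA in Ccr3, searched on both strands. Camp is at chr9:109678686-109678935 (minus strand), Ngp at chr9:110248565-110248814 (plus strand) and Ccr3 at chr9:123821759-123822008 (plus strand), all GRCm39.
Camp: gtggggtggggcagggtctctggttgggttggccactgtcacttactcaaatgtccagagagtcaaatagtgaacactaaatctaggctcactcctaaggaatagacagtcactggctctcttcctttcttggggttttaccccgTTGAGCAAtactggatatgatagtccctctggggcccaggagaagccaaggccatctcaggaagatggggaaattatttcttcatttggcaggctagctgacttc
Ngp: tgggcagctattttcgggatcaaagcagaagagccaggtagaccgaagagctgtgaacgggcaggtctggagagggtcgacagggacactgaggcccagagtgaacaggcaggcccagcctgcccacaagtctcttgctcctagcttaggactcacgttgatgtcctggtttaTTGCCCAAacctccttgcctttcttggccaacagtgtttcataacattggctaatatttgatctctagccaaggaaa
Ccr3: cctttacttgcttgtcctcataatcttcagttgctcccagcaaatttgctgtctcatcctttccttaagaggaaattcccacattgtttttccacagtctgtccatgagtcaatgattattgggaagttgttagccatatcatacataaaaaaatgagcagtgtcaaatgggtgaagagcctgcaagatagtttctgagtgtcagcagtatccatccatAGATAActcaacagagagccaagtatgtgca

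The C/EBP motif lies 105 to 98 bases before the start of Camp, on the opposite strand, and 77 to 70 bases before that of Ngp, on the same strand. It occurs in 8.25% of 10495 promoters of this length, and in those of 4 of the 9 called genes, with Il7r and Gm21188 as the others. The GATA motif lies 31 to 26 bases before the start of Ccr3 and occurs in 7.83% of all promoters and in 2 of the 9, Ccr3 and Camk1. The PU.1 motif GAGGAA was found in 23.9% of all promoters and in 2 of the 9, Ccr3 and Gm21188. These matches describe letters in the window and were not tested as binding sites.

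Camp (ENSMUSG00000038357, chromosome 9, 109676442 to 109678685, minus strand) had a vst value of 6.44 to 7.46 in BPR21 mice (median 6.75) and 7.01 to 9.81 in D06 mice (median 7.88). In raw counts this was 5 to 51 per BPR21 mouse and 26 to 582 per D06 mouse. All 12 BPR21 mice were below the D06 median and 9 of 12 were below every D06 mouse, and D06 mouse 6 and D06 mouse 1 stood highest. The difference on the vst scale was -1.19 (SE 0.24, limma FDR = 0.0495), and on counts, where low values are not compressed, the log2 fold change was -3.17 (edgeR FDR = 0.00889). Control mice had a median of 6.64, close to the BPR21 mice, and HOCl mice without an agent one of 7.47. Camp passed both limma thresholds in 5 of 24 leave-one-out fits, with an FDR of up to 0.0908 without BPR21 mouse 6.

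Ngp (ENSMUSG00000032484, chromosome 9, 110248815 to 110252086, plus strand) ran from 7.18 to 8.78 in BPR21 mice (median 7.75) and from 7.82 to 11.37 in D06 mice (median 8.87). D06 mice 6 and 1 were again the highest. HOCl mice without an agent had a median of 8.87, the same as the D06 mice, and control mice one of 7.74, close to the BPR21 mice. The log2 fold change of Ngp was -1.34 on the vst scale (SE 0.30, limma FDR = 0.0729) and -2.33 on counts (edgeR FDR = 0.0347), so the call rests on the count test. With each mouse left out, its limma FDR ran from 0.0304 (without D06 mouse 4) to 0.140 (without BPR21 mouse 4).

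Of 28 neutrophil genes measured, limma called Camp alone, edgeR called 2 (Camp and Ngp) and DESeq2 called 3 (with Cebpe), all lower. The shares of all genes called lower by these tests were 0.0476%, 0.0571% and 0.257%. The median log2 fold change of the list was 0.03 beside 0.01 over all genes. At an unadjusted p under 0.05, 4 members were lower in BPR21 mice and 2 higher, beside 4.53% and 4.41% of all genes. The lower ones besides Camp and Ngp were Cebpe (-0.50, FDR = 0.102), the transcription factor of late granulocyte maturation, and Retnlg (-0.56, FDR = 0.538), a resistin-like protein of neutrophils. The 2 with higher values were Il1r2 (0.96, FDR = 0.473), a decoy receptor for interleukin-1, and Fpr1 (0.61, FDR = 0.473), a receptor for bacterial formyl peptides, and neither passed. Both were highest in BPR21 mouse 11, the mouse with 18121 CPM of neutrophil genes. The most abundant genes of mature neutrophils, S100a9 (0.02, FDR = 0.989), S100a8 (-0.01, FDR = 0.993) and Csf3r (0.28, FDR = 0.708), gave no call. The sign of the list median changed with single mice: it was -0.11 without BPR21 mouse 7, -0.10 without BPR21 mouse 11 and 0.14 without D06 mouse 1.

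Eosinophil genes had lower values in BPR21 mice across most of the list. Ccr3, the eotaxin receptor by which eosinophils enter tissue (ENSMUSG00000035448, chromosome 9, 123822009 to 123831726, plus strand), ran from 7.53 to 9.55 in BPR21 mice (median 8.90) and from 8.74 to 11.15 in D06 mice (median 10.20). All 12 BPR21 mice were below the D06 median, and 8 of 12 D06 mice were above every BPR21 mouse. The difference was -1.21 on the vst scale (SE 0.25, limma FDR = 0.0610) and -1.55 on counts (edgeR FDR = 0.0383), which corresponds to a 2.31-fold higher vst-scale level in D06 blood. Medians in HOCl mice without an agent (8.98) and control mice (8.91) were close to that of the BPR21 mice, again without a test.

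Of 18 measured eosinophil, basophil and mast cell genes, limma called 0, edgeR 1 (Ccr3) and DESeq2 4, each lower in BPR21 mice. Over all genes, these tests called 0.0476%, 0.0571% and 0.257% lower. At an unadjusted limma p under 0.05, 9 of 18 were lower and 0 higher, against 4.53% and 4.41% of all genes, and the list median was -0.30. Among these 9, Alox15, the lipoxygenase of eosinophils, differed by -1.03 (SE 0.24, FDR = 0.105), with vst values of 6.97 to 9.21 in BPR21 mice and 8.72 to 10.74 in D06 mice. Prg2, the major basic protein of eosinophil granules, differed by -0.63 (FDR = 0.0610), and 3 of 12 BPR21 mice had no count of it against 0 of 12 D06 mice. Siglecf, a surface lectin of eosinophils (-0.47, FDR = 0.266), Il5ra, the interleukin-5 receptor subunit (-0.48, FDR = 0.468), and the granule ribonuclease gene Ear6 (-0.87, FDR = 0.210) had the same sign. Ear1 is uncertain, since 74.5% of the 31-base words of its transcripts occur in other genes. Among genes of basophils and mast cells, Mcpt8, a basophil protease, had -0.50 (FDR = 0.312), while Cpa3, Fcer1a, Gata2 and Hdc had an unadjusted p of at least 0.05. Of the 18 list members, 3 had a fold change above 0, the highest 0.45. Summed over the list, levels overlapped: 181 to 761 CPM in BPR21 mice (median 281) and 182 to 672 CPM in D06 mice (median 322). The highest sum belonged to BPR21 mouse 11. The count of 9 was the same without BPR21 mouse 11, in which Ccr3, Alox15, Ear6 and Il5ra had their lowest values.

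**Figure D4:**
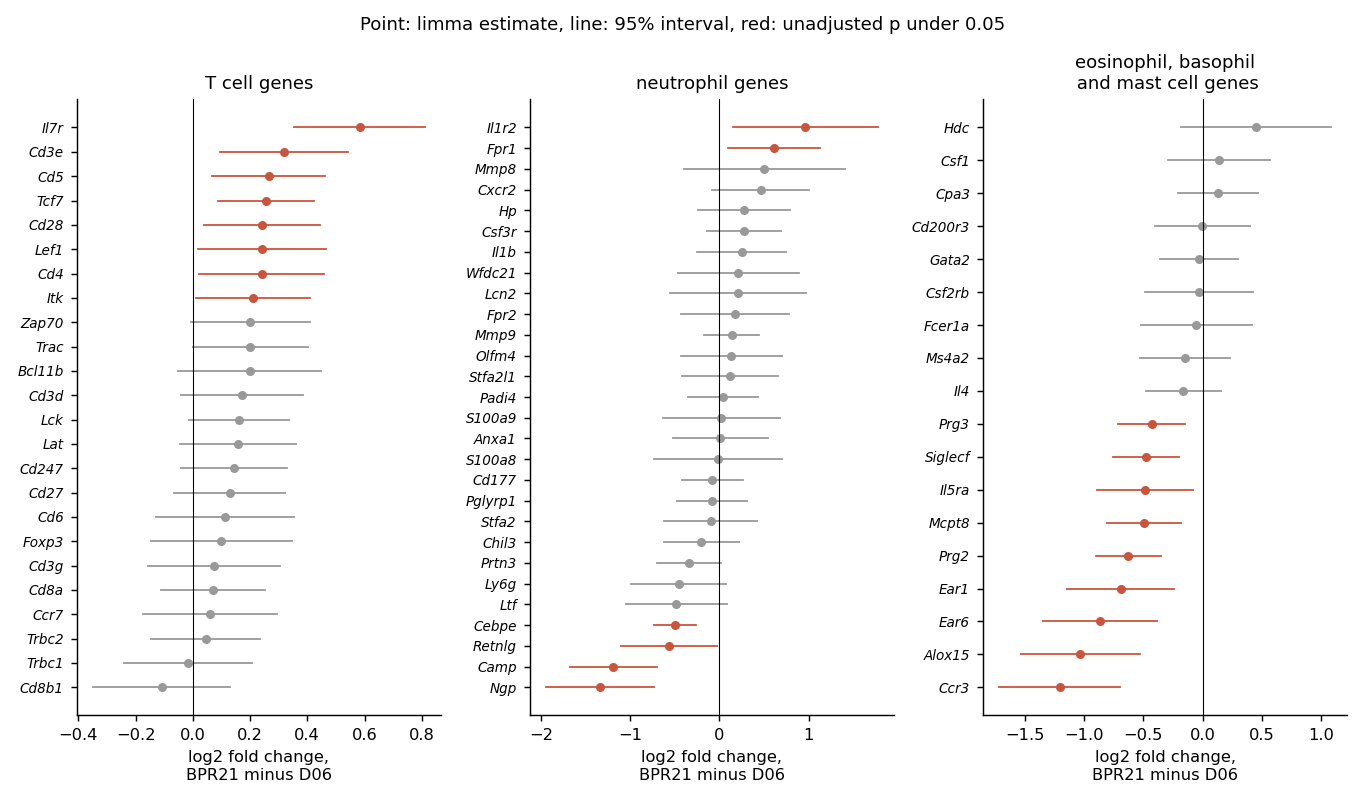
Log2 fold change between BPR21 and D06 mice (x axis, vst values) with 95% interval for every measured member of the T cell, neutrophil and eosinophil, basophil and mast cell lists. Red marks an unadjusted limma p under 0.05. In the T cell panel 22 of 24 points lie above 0 and in the eosinophil panel 15 of 18 lie below 0, while the neutrophil panel has Camp and Ngp at one end and Il1r2 at the other.

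T cell genes had higher values in BPR21 mice. Of 24 measured, limma called Il7r, as did edgeR, beside 0.00952% of all genes called higher by each test. Of these 24, 22 had a fold change above 0, beside 5579 of all 10508 genes, and the list median was 0.17. At an unadjusted p under 0.05, 8 were higher and 0 lower, beside 4.41% and 4.53% of all genes. The count of 8 became 5 without BPR21 mouse 10 or D06 mouse 6 and 13 without BPR21 mouse 11. Tcf7, the transcription factor of naive and memory T cells, differed by 0.25 (SE 0.08, FDR = 0.334), with vst values of 11.98 to 12.59 in BPR21 mice and 11.70 to 12.30 in D06 mice. Cd3e, a chain of the T cell receptor complex, differed by 0.32 (FDR = 0.392). The helper coreceptor Cd4 was among the 8 (0.24, FDR = 0.515), whereas the cytotoxic coreceptor genes Cd8a (0.07) and Cd8b1 (-0.11) had an unadjusted p of at least 0.05.

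Genes of natural killer (NK) and cytotoxic lymphocytes had the opposite sign to T cell genes. Of 20 measured, limma and edgeR called 0 and DESeq2 called 2 lower (Ccl5 and Gzma), beside 0.257% of all genes. In 19 the fold change was below 0, beside 4929 of all 10508 genes, and the list median was -0.24. At an unadjusted limma p under 0.05, 9 were lower and 0 higher, beside 4.53% and 4.41% of all genes. Ccl5, a chemokine stored by cytotoxic cells, differed by -0.57 (SE 0.12, FDR = 0.0645), with vst values of 10.13 to 11.03 in BPR21 mice (median 10.31) and 10.43 to 11.47 in D06 mice (median 11.01). The granule protease gene Gzma differed by -0.63 (SE 0.15, FDR = 0.102) and the NK receptor gene Ncr1 by -0.56 (FDR = 0.177). In all 3, 11 of 12 BPR21 mice lay below the D06 median.

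Monocyte genes also had mostly lower values in BPR21 mice. Of 24 monocyte and dendritic cell genes, limma and edgeR called 0 and DESeq2 called 1 lower (Adgre1), beside 0.257% of all genes. In 20 the fold change was below 0, beside 4929 of all 10508 genes, and the list median was -0.17. At an unadjusted limma p under 0.05, 9 were lower and 0 higher, beside 4.53% and 4.41% of all genes. Ccr2, the chemokine receptor that lets classical monocytes leave bone marrow, differed by -0.82 (SE 0.21, FDR = 0.177), and its vst value was 9.69 to 11.86 in BPR21 mice (median 10.95) and 10.95 to 12.21 in D06 mice (median 11.71). BPR21 mouse 10 was lowest. Adgre1, which encodes F4/80 and is carried by monocytes and, in mice, by eosinophils, differed by -0.76 (FDR = 0.152). Lyz2, lysozyme of myeloid cells, differed by -0.45 (FDR = 0.275) and Ly6c2 by -0.41 (FDR = 0.335).

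B cell genes (20 measured), plasma cell and immunoglobulin genes (18) and platelet genes (22) gave 0 calls in limma, edgeR and DESeq2. At an unadjusted limma p under 0.05 these lists held 0, 1 (Ighg3, -0.42, FDR = 0.363) and 0 genes, beside 8.94% of all genes. Their medians were -0.12, -0.02 and -0.02, or 0.02, 0.10 and 0.15 with total-count scaling, and the most abundant members, Ighm (-0.14), Igkc (-0.13) and Nrgn (-0.02), had FDR values of 0.863, 0.889 and 0.985.

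**Figure D5:**
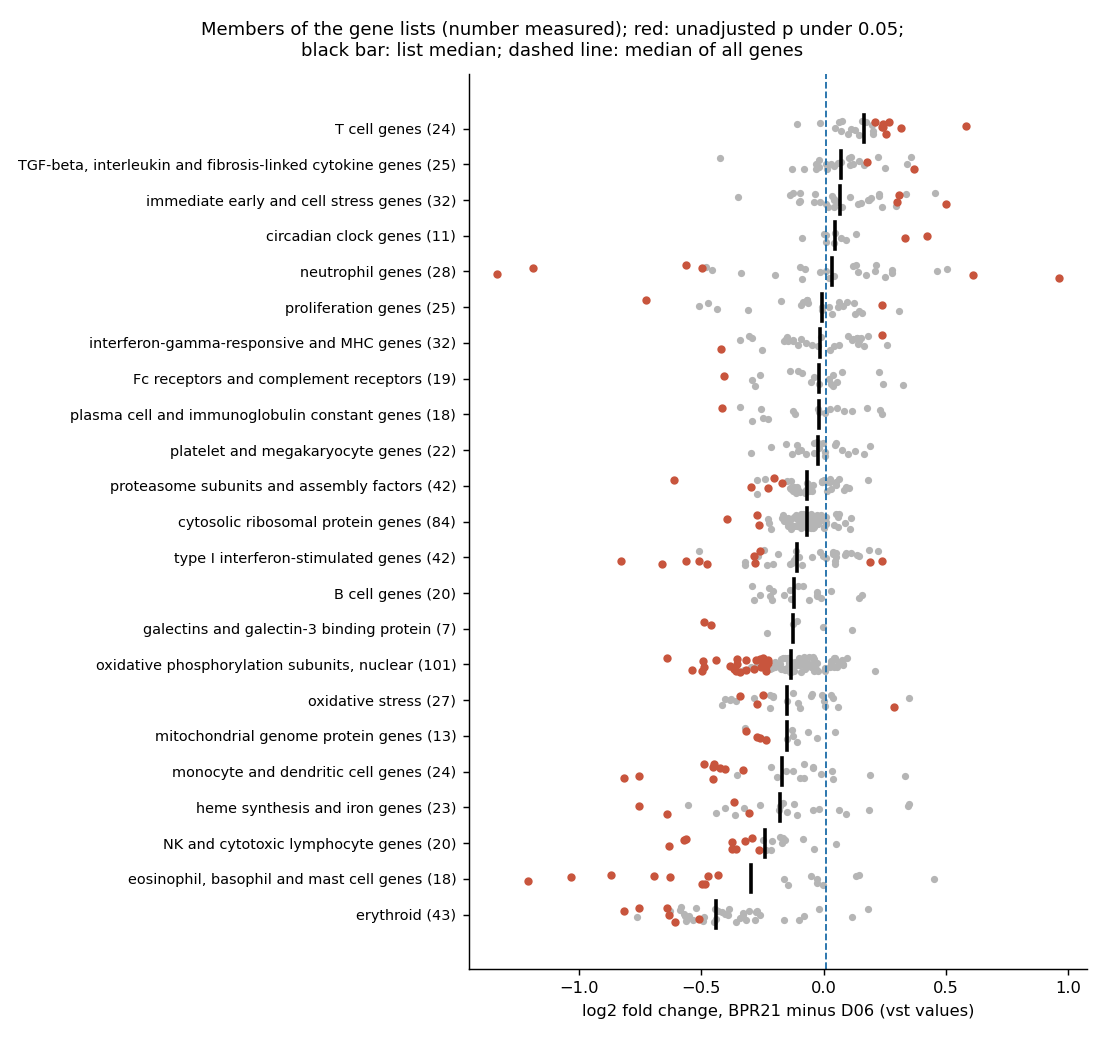
Log2 fold change between BPR21 and D06 mice (x axis, vst values) of the measured members of 23 gene lists, with 1 point per gene. Red points have an unadjusted limma p under 0.05, black bars mark list medians, and the dashed line marks the median of all genes, 0.01. T cell genes stand at the top with a median of 0.17 and red cell precursor genes at the bottom with -0.44.

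Because the agents were studied in the setting of Gal-3, the galectins were examined by name. Lgals3, which encodes Gal-3, did not pass: the difference was -0.46 (SE 0.13, limma FDR = 0.266; edgeR FDR = 0.341). Its vst value was 9.94 to 11.23 in BPR21 mice (median 10.48) and 10.53 to 11.48 in D06 mice (median 10.96), and 10 of 12 BPR21 mice lay below the D06 median. HOCl mice without an agent had a median of 11.09 and control mice one of 10.88. Lgals1, which encodes the small galectin-1 of lymphoid and stromal cells (ENSMUSG00000068220, chromosome 15, 78810875 to 78814670, plus strand), was called by edgeR (log2 fold change -0.57, FDR = 0.0455) and missed the limma threshold (-0.49, SE 0.10, FDR = 0.0610). Its vst value was 9.60 to 10.06 in BPR21 mice (median 9.92) and 9.75 to 10.73 in D06 mice (median 10.37), with 10 of 12 D06 mice above every BPR21 mouse. Medians of HOCl mice without an agent (10.12) and control mice (10.14) lay between these. With each mouse left out, the limma FDR of Lgals1 ran from 0.0191 (without D06 mouse 5) to 0.129 (without D06 mouse 6). Of 7 galectin and galectin-3 binding protein genes measured, 6 had a fold change below 0, beside 4929 of all 10508 genes. The list median was -0.12 beside 0.01 over all genes, or -0.02 beside 0.17 with total-count scaling. At an unadjusted limma p under 0.05, 2 of the 7 were lower and 0 higher, beside 4.53% and 4.41% of all genes. limma called 0 of the 7, and edgeR called 1 lower, beside 0.0571% of all genes.

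The genes with the smallest p whose limma FDR was above 0.05 are given as values only. On the side of higher values in BPR21 mice these were Pik3ip1 (0.43, FDR = 0.0645), an inhibitor of phosphoinositide 3-kinase that resting T cells express, Ccdc126 (0.46, FDR = 0.0645), Atp1b3 (0.34, FDR = 0.0956), a sodium pump subunit, F2rl1 (0.46, FDR = 0.102), a protease-activated receptor, and Rnf2, Inpp4a, Prrt1, Ambra1 and Akap12, with differences of 0.32 to 0.47 and FDR values of 0.172 to 0.177. On the other side they were Plac8 (-0.72, FDR = 0.0610), the interferon-stimulated gene Ifi44 (-0.48, FDR = 0.0610), Prg2, Ccr3 and Lgals1. DESeq2 on counts called 38 genes (0.362%), 11 higher (0.105%) and 27 lower (0.257%), among them the 6 of limma and the 7 of edgeR.

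Genes of red cell precursors leaned to lower values in BPR21 mice without any call. Of 43 measured, 41 had a fold change below 0, beside 4929 of all 10508 genes, and the median was -0.44. Calls by limma, edgeR and DESeq2 were 0. At an unadjusted limma p under 0.05, 6 were lower and 0 higher, beside 4.53% and 4.41% of all genes. Slc25a37, the iron importer of erythroid mitochondria, differed by -0.76 (SE 0.23, FDR = 0.291), and Alas2, which starts heme synthesis, by -0.26 (FDR = 0.775). D06 mouse 5, the library with the lowest size factor, had the highest Slc25a37 value (17.12), against 14.55 to 15.41 for the lowest and median D06 mouse and 13.69 to 15.62 in BPR21 mice. The count and the size of the difference rested on single mice. Without D06 mouse 5 alone, 1 gene had an unadjusted p under 0.05 and the median was -0.25, and without BPR21 mouse 12 alone, 22 genes did and the median was -0.59. Without both, the count was 15, all lower, beside 608 instead of 476 over all genes.

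Type I interferon-stimulated genes, a group that responds to interferon-alpha and -beta, gave 0 calls of 42 in limma and edgeR and 2 in DESeq2 (Ifi44 and Ifi27l2a), with a list median of -0.11, which was 0.01 with total-count scaling, where the median of all genes was 0.17. Both DESeq2 calls were lower, beside 0.257% of all genes. At an unadjusted limma p under 0.05, 8 of the 42 were lower and 2 higher, beside 4.53% and 4.41% of all genes. The count of 8 became 5 without D06 mouse 5 or BPR21 mouse 1 and 12 without BPR21 mouse 11 or BPR21 mouse 12. The most abundant members, Rsad2 (-0.83, SE 0.30, FDR = 0.422), Isg15 (-0.66, FDR = 0.510) and Irf7 (-0.51, FDR = 0.591), varied widely within groups. For Rsad2 the vst value was 13.09 to 15.92 in BPR21 mice and 14.20 to 17.67 in D06 mice, and the highest D06 value belonged to D06 mouse 5. Of 32 genes of interferon-gamma response and antigen presentation, limma, edgeR and DESeq2 called 0. At an unadjusted limma p under 0.05, 1 was higher and 1 lower, beside 4.41% and 4.53% of all genes.

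Genes outside the vst table, including non-coding genes and genes the authors removed for low expression, were tested on counts alone. Among 2429 of them, edgeR called 0, beside 6 of 12587 genes (0.0477%) over the whole table, and 95 had an unadjusted p under 0.05, beside 8.02% over the whole table. The smallest FDR among the 2429 was 0.190. DESeq2 called 32 genes over the whole table (0.254%) and 1 of these 2429, Sphk1, a kinase that makes the lipid mediator sphingosine-1-phosphate. Its counts were 0 to 23 in BPR21 mice (median 7.5) and 0 to 166 in D06 mice (median 41.0), with a log2 fold change of -2.61 (FDR = 0.0291), and edgeR gave -2.58 (FDR = 0.226). The groups overlapped: 3 BPR21 mice and 1 D06 mouse had no count.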

How the data were processed

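Whole-blood RNA-seq of 71 mice was analysed, of which the 12 BPR21 and 12 D06 mice entered the comparison, grouped by the treatment tag of the sample labels. Raw counts of reads on 55416 genes, as the authors deposited them, were made per the methods and processing notes with Cutadapt, STAR on mm39 and featureCounts from stranded, poly A-selected, globin-depleted libraries. The deposited vst values, a log2-like scale from DESeq2, cover 10508 genes in 70 mice after the authors removed non-protein-coding and low genes. The versions of the aligner and the counter, the gene annotation and the strand setting of the mouse counts are not given in the sources used here. Size factors, CPM and coordinates (GENCODE vM39, GRCm39) were computed or looked up here.

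limma 3.58.1 on the deposited vst values was the main test (Benjamini-Hochberg FDR of at most 0.05, fold-change of at least 1.3, the 24 mice only). edgeR 4.0.16 (quasi-likelihood, TMM) and DESeq2 1.42.0 tested the counts of 10501 genes matched by symbol, and of 12587 genes past edgeR's filter over the whole table. The software was R 4.3.3 and Python 3.11.15, and scripts were tested on simulated data. The vst values depend on size factors, and vst compresses differences at low counts. Lists were not tested as sets. The 23 gene lists, the members and the thresholds were chosen with earlier results of these data known. Named genes were those past both limma thresholds, the 10 higher and 10 lower genes with the smallest p, up to 5 per direction called by edgeR, Lgals3, and the 3 most abundant and any called members of each list. Other list members named, and Sphk1, were chosen after their values were seen. Nothing in the sources used here says more of the mice of a group than that they are separate samples, so p-values measure the spread between these samples.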

Additional observations from a re-analysis of the deposited data

How the results depend on the processing

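The limma count of 6 called genes became 36 in a fit of all 6 groups, 37 in a fit of the 5 HOCl groups, 11 with each mouse centred on its median, 15 with the erythroid score as a covariate, and 0 on log2(CPM + 1) with total-count scaling, where 993 genes had an unadjusted p under 0.05. It was 3 without D06 mouse 5 and BPR21 mouse 12, an alternative chosen after seeing the data. With each mouse left out it ranged from 0 to 11 (median 3), with 0 without BPR21 mouse 6, BPR21 mouse 11, D06 mouse 2 or D06 mouse 8, and 11 without D06 mouse 5 or BPR21 mouse 8. The edgeR count of 7 became 3 without factors beyond the total count, 38 with DESeq2, 49 in a fit of all 6 groups, and 2 to 11 with each mouse left out. On the whole count table, 6 called genes became 32 with DESeq2. A replicate block by mouse number gave 2 for limma, 2 for edgeR and 2 for the whole table. Same-numbered mice were no more alike across the groups: 1 of 12 such pairs correlated above 0.1, against 30 of 132 other pairs. Of 12 BPR21 mice, 1 correlated best with its own number. Within a group the numbers may still carry an order, which was not tested. B cell genes, for example, summed to 5284 CPM in BPR21 mouse 1 and 623 CPM in BPR21 mouse 12. In D06 mice 1 and 12 they summed to 2871 and 2750 CPM. Under 11 other settings, not counting those that leave out 1 mouse, 0 of 87 named genes (0 of 81 where the least expressed genes were removed) changed sign with an unadjusted p under 0.05 in either fit. These settings refit largely the same mice, and many of the genes were picked by p in them, so this could hardly come out otherwise. With total-count scaling, 6 of the 87 lost their call. The difference in distance from the group mean was -5.03 with genes scaled to unit variance (p = 0.536, two-sided permutation test) against 0.608. The fits of more groups also use the spread of other mice. For the other shifts the cause was not tested. Total-count scaling moved the median of all genes to 0.17, and relative to it the medians of the erythroid (-0.32), NK (-0.21), monocyte (-0.12) and eosinophil (-0.40) lists stayed lower and that of the T cell list (0.34) higher. Depth limits genes with few counts, such as Camp, Aif1, Prg2 and Sphk1.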

Other observations

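Some gene groups not described above had many small differences of mostly 1 sign on the vst scale. Of 101 nuclear genes of oxidative phosphorylation, the mitochondrial machinery that makes ATP, 84 had a fold change below 0, beside 4929 of all 10508 genes. The list median between BPR21 and D06 mice was -0.13. limma, edgeR and DESeq2 called 0, and 25 had an unadjusted limma p under 0.05, all lower in BPR21 mice, against 4.53% of all genes. Atp5l, an ATP synthase subunit, differed by -0.54 (FDR = 0.506), and Cox6c, a cytochrome oxidase subunit, by -0.27 (FDR = 0.710). Of 13 protein genes of the mitochondrial genome, 12 had a fold change below 0, with a median of -0.15, and 4 had an unadjusted p under 0.05, among them mt-Co1 (-0.32, FDR = 0.481). With total-count scaling the 2 medians were -0.002 and -0.03, beside 0.17 for all genes. Of 84 cytosolic ribosomal protein genes, 70 had a fold change below 0, with a median of -0.07, or 0.10 with total-count scaling. At an unadjusted p under 0.05, 3 were lower and 0 higher, beside 4.53% and 4.41% of all genes. With each mouse left out, the 3 counts ran from 15 (without BPR21 mouse 1) to 34 (without BPR21 mouse 12), from 1 to 6, and from 1 to 12 (without D06 mouse 8). With the erythroid score as a covariate, the medians of the nuclear oxidative phosphorylation, mitochondrial genome and ribosomal lists were -0.09, -0.17 and -0.06.

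Of 42 proteasome genes, limma and edgeR called 0 and DESeq2 1, Psme4, an activator of the proteasome (-0.61 in limma, FDR = 0.275). DESeq2 called 0.257% of all genes lower. The fold change was below 0 in 29 of the 42, beside 4929 of all 10508 genes, and the median was -0.07. At an unadjusted limma p under 0.05, 5 were lower and 0 higher, beside 4.53% and 4.41% of all genes. Of 27 antioxidant and NRF2 target genes, limma, edgeR and DESeq2 called 0, the median was -0.15, and 3 had lower and 1 higher values at an unadjusted limma p under 0.05. Of 32 immediate early and stress genes, 3 had higher values in BPR21 mice at an unadjusted p under 0.05 and 0 lower. DESeq2 called 1 of them higher, beside 0.105% of all genes. It was Ddit4, which is induced by glucocorticoids and energy stress (0.50 in limma, SE 0.15, FDR = 0.275). Fkbp5, another glucocorticoid-induced gene, was called by DESeq2 (1.00, FDR = 0.0497) and in the limma fit of all 6 groups (0.56, FDR = 0.0363), although the 2-group limma fit gave an FDR of 0.312. It was picked for mention with its values known. Per1, a clock gene, differed by 0.42 (FDR = 0.281), and Tnf by 0.37 (FDR = 0.392). The lists not yet given had no call in limma, edgeR or DESeq2. At an unadjusted limma p under 0.05, 4 of 23 heme and iron genes had lower and 0 higher values (median -0.18), proliferation genes had 1 lower and 1 higher of 25, Fc and complement receptor genes 1 lower and 0 higher of 19 (Fcgr1, -0.41), cytokine genes 2 higher and 0 lower of 25 (median 0.07), and clock genes 2 higher and 0 lower of 11 (median 0.05). For these lists and the antioxidant and stress lists above, the shares over all genes were 4.53% lower and 4.41% higher. The hour of blood collection is not given in the sources used here.

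In the limma fit of all 6 groups, which estimates the spread of a gene from all 70 mice with vst values, 36 genes were called between BPR21 and D06 mice (0.343%), 9 higher and 27 lower. They shared 23 genes with the 38 called by DESeq2, which is 63.9% of the 36 and 60.5% of the 38. The 27 lower genes, 0.257% of all genes, held 4 of 18 in the eosinophil list (Ccr3, Alox15, Ear6 and Prg2). They also held 3 of 20 in the NK list (Ccl5, Gzma and Ncr1) and 2 of 24 in the monocyte list (Ccr2 and Adgre1). The neutrophil list gave 2 of 28 (Camp and Ngp) and the galectin list 1 of 7 (Lgals1). Among the higher genes, 0.0856% of all genes, was 1 of 24 in the T cell list (Il7r). Clec12a, an inhibitory lectin of myeloid cells (-0.63, FDR = 0.00770), was also called there.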
